A study of Danio rerio with 57 samples.

Results

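The aryl hydrocarbon receptor (AhR) gene battery was followed in whole zebrafish embryos through 8 genes: the receptor ahr2, its repressors ahrra and ahrrb, the feedback enzyme tiparp, and the cytochrome P450 family 1 genes cyp1a, cyp1b1, cyp1c1 and cyp1c2. The rows were found in the count table by gene symbol, ignoring case, and cyp1a (ENSDARG00000098315) by its identifier. All 8 were among the 32520 genes listed and among the 24246 that passed the filter on low counts. This rule used no measured value.

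The AhR is a transcription factor that waits in the cytosol bound to chaperones, enters the nucleus when a planar aromatic ligand such as dioxin binds it, pairs there with Arnt and switches on CYP1 monooxygenases, which oxidise many such ligands. The same activation raises the AhR repressor and TIPARP, which in mammals curb the receptor, so that the battery contains its own brake. In zebrafish embryos cyp1a is the classic readout of AhR activation, ahr2 is the receptor through which dioxin acts, and vascular endothelium is known as a place where cyp1a is made.

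The embryos were wild-type animals of the F3 generation of the strain OBI/WIK and 1 library was made from a pool of 20 embryos. Sorafenib is a kinase inhibitor that blocks VEGF receptors, and rotenone is an inhibitor of mitochondrial complex I. In the late exposure scenario embryos were placed at 24 hpf (hours post-fertilisation) in 1.3 or 2.4 µM sorafenib, in 25 or 50 nM rotenone or in the solvent DMSO, and were sampled at 36, 48 and 96 hpf. In the early exposure scenario, which the library labels start at 0 hpf and the treatment protocol at 2 hpf, embryos in 2.4 µM sorafenib, 25 nM rotenone or DMSO were sampled at 96 hpf. There were 3 libraries in each late group except late DMSO at 48 hpf with 2, 4 in each early treated group and 3 in early DMSO, 55 libraries in 18 groups. A library is named here by its tube number, as in T16.

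The totals lay between 20609990 and 86897183 counts per library. Another 2 DMSO libraries were left out. T14 of the early scenario held 13 counts, and T51 of late DMSO at 48 hpf, an omission taken over from the methods, is given after the DMSO course and beside the cyp1a results at that age. Between replicates the median difference over all genes was 0.11 to 0.24 on the log2 scale, except in pairs with T16 (sorafenib 2.4 µM, 36 hpf; 0.67 and 0.69), T37 (rotenone 50 nM, 36 hpf; 0.49 and 0.50) and T49 (rotenone 25 nM, 48 hpf; 0.36 and 0.37). Markers of nerve, muscle, blood, skin, lens, endothelium and liver were all found, as in a whole embryo. In every library elavl3 was at 179 CPM (counts scaled to a common library size) or more and actc1b at 7666 CPM or more. The lens marker cryaa and the liver marker fabp10a were weak in some libraries, with lowest values of 0.97 and 0.11 CPM. Levels below are CPM after TMM scaling. The TMM factor, by which the total of a library is multiplied, was 0.68 in T16, 0.66 in T37 and 0.80 in T49. In the other libraries it was 0.90 to 1.15. A low factor raises CPM, so the levels of T16, T37 and T49 depend on this scaling. DEGs are genes that pass edgeR's quasi-likelihood test at an adjusted p (Benjamini-Hochberg, over all tested genes) below 0.05, and changes are log2 fold changes ± standard error.

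In DMSO embryos most of the battery changed with age, as most tested genes did in the steps to 96 hpf, and the members did not share 1 course. From 36 to 48 hpf 6 of the 8 genes were up-regulated and none was down-regulated, when 33.8% of all tested genes were DEGs. From 48 to 96 hpf 5 rose and 2 fell, against 58.6% of all genes, and from 36 to 96 hpf 5 rose and 1 fell, against 72.5%. The median change of the 8 genes from 36 to 96 hpf was 1.35, beside 0.13 over all genes, where rises and falls cancel. Regardless of direction, the median size of change over all genes was 0.91.

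The receptor ahr2 stood at 31.8, 30.6 and 30.3 CPM at 36 hpf, at 62.0 and 61.7 CPM at 48 hpf, and at 79.9, 80.6 and 85.5 CPM at 96 hpf. The groups of the 3 ages did not overlap, and each step was significant (1.00 ± 0.12, adjusted p = 9.6e-09, and then 0.41 ± 0.13, adjusted p = 0.0051). The feedback enzyme tiparp, known in mammals to modify and curb the AhR, had its highest level in the middle of this course. It was measured at 42.8, 41.0 and 41.4 CPM at 36 hpf, at 71.3 and 73.7 CPM at 48 hpf, and at 52.6, 50.8 and 47.5 CPM at 96 hpf. It rose by 0.80 ± 0.14 (adjusted p = 1.1e-05) and then fell by 0.53 on the log2 scale (SE 0.14, adjusted p = 0.0012).

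The repressors were the most weakly counted members. The repressor ahrrb, which competes with the AhR for Arnt, was at 0.19, 0.13 and 0.18 CPM at 36 hpf, at 0.32 and 0.34 CPM at 48 hpf, and at 0.79, 1.23 and 0.81 CPM at 96 hpf, or 5 to 65 counts in these libraries. All 96 hpf libraries were above all earlier ones, and the change from 36 to 96 hpf was 2.46 ± 0.58 (adjusted p = 0.00023). The step from 48 to 96 hpf, 1.51 ± 0.62 (adjusted p = 0.033), was no longer significant without T54, T55 or T77 (adjusted p = 0.144, 0.113 and 0.103). Its paralog ahrra had 7 to 30 counts in these libraries, between 0.18 and 0.57 CPM, and no step of age was significant.

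The monooxygenases took different routes. The member cyp1a was measured at 9.79, 9.28 and 9.89 CPM at 36 hpf, at 11.8 and 14.8 CPM at 48 hpf, and at 23.8, 24.5 and 22.2 CPM at 96 hpf. No 2 ages overlapped, and the change from 36 to 96 hpf was 1.28 ± 0.14 (adjusted p = 7.3e-11), a 2.43-fold difference. Its first step, 0.46 ± 0.16 (adjusted p = 0.019), rested on T55 and T29 (0.29, adjusted p = 0.310, and 0.44, adjusted p = 0.0565, without them), and the second was 0.82 ± 0.16 (adjusted p = 2.3e-05).

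The member cyp1b1, which in mammals also oxidises retinoids and oestrogens, peaked at 48 hpf. Its levels were 6.01, 5.05 and 5.78 CPM at 36 hpf, 17.7 and 14.9 CPM at 48 hpf, and 3.73, 4.24 and 3.79 CPM at 96 hpf. It rose 2.90-fold (1.54 ± 0.22, adjusted p = 2.4e-07) and then fell by 2.05 on the log2 scale (SE 0.22, adjusted p = 6.9e-11). At 96 hpf it was below its 36 hpf level in all libraries (-0.52 ± 0.21, adjusted p = 0.023), a difference that was not significant without T28, T30, T76 or T78 (adjusted p between 0.0546 and 0.0705).

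The members cyp1c1 and cyp1c2 belong to the same CYP1 subfamily, and they are next to each other in the gene order of the RefSeq annotation (assembly GRCz12tu). The level of cyp1c1 was 2.09, 2.16 and 2.45 CPM at 36 hpf, 10.8 and 13.0 CPM at 48 hpf, and 26.8, 26.3 and 26.1 CPM at 96 hpf. That of cyp1c2 was 0.72, 0.62 and 1.16 CPM, then 2.95 and 2.69 CPM, and then 5.87, 6.13 and 6.23 CPM. Both rose at each step without overlap. From 36 to 96 hpf cyp1c1 changed by 3.56 ± 0.17 (11.8-fold, adjusted p = 4.1e-23), the most of the 8 members, and cyp1c2 by 2.85 ± 0.23 (7.23-fold, adjusted p = 1.1e-14). As paralogs with similar sequence they could lose or share reads, which was not tested. Reads of low mapping quality had been removed before counting.

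The omitted library T51 differed from the other DMSO libraries of 48 hpf in several members. It had ahr2 at 74.4 CPM, cyp1b1 at 11.5 CPM, cyp1c1 at 14.3 CPM, cyp1c2 at 4.03 CPM and tiparp at 73.0 CPM, so that ahr2, cyp1c1 and cyp1c2 were above and cyp1b1 was below both T54 and T55. With T51 kept all calls of the steps to and from 48 hpf were made again, but the ahr2 step from 48 to 96 hpf was 0.26 (adjusted p = 0.028). In limma voom with cyclic loess the same step was 0.68 for ahr2 (adjusted p = 1.3e-05), 0.70 for cyp1c2 (adjusted p = 0.0099) and -0.28 for tiparp (adjusted p = 0.048), and the change from 36 to 96 hpf was -0.90 for cyp1b1 (adjusted p = 7.7e-05) and 1.61 for ahrrb (adjusted p = 0.019). In voom the steps of cyp1a from 36 to 48 hpf and of ahrrb from 48 to 96 hpf did not pass (adjusted p = 0.0755 and 0.263).

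**Figure D1:**
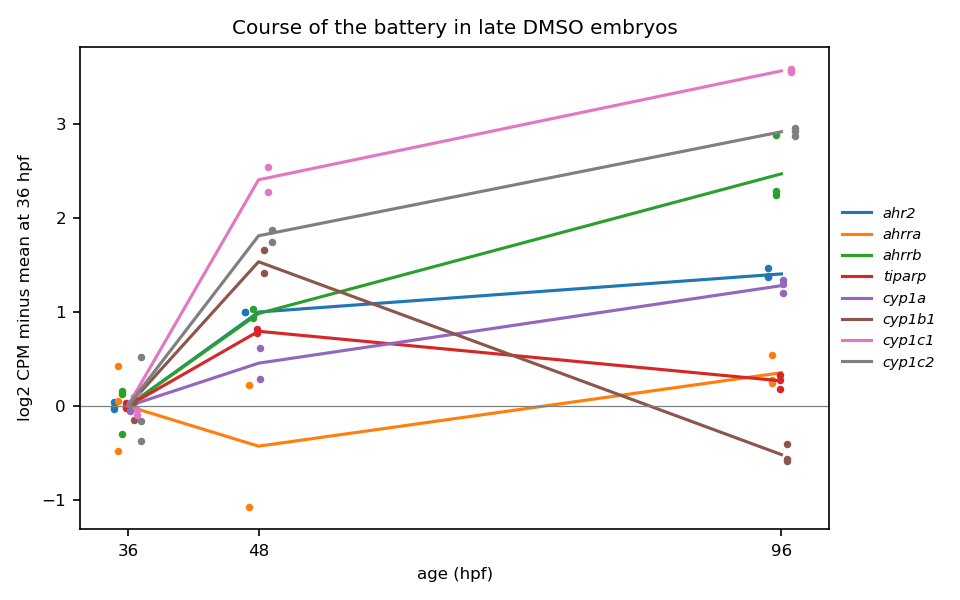
Log2 CPM of each member in the late DMSO libraries, minus its own mean at 36 hpf, against age in hpf. Dots are libraries (3, 2 and 3 by age, set side by side for legibility) and lines join the means. The 2 cyp1c genes climb throughout, and cyp1b1 and tiparp are highest at 48 hpf.

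Against this course few changes of the battery with exposure were significant in the edgeR fit of all groups, and these were of cyp1a and ahr2. Over the 14 comparisons of a treated group with DMSO of its scenario and age, 4 of 112 pairs of a member and a comparison were significant, 3 of them cyp1a down-regulated by sorafenib and 1 ahr2 up-regulated by sorafenib. Over all genes 1.67% of the tests of these comparisons were significant, and 0.268% without 2.4 µM sorafenib at 96 hpf, where 2 of the 4 calls lie. None of the 56 pairs of a member with rotenone was significant, when 0.0819% of all tests with rotenone were. No CYP1 gene was significantly up-regulated in these 14 comparisons in the edgeR fit of all groups, while single alternatives called cyp1a, cyp1b1, cyp1c1 or cyp1c2 up-regulated in places, which are given with each gene.

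At 48 hpf cyp1a was down-regulated at both sorafenib concentrations. DMSO embryos had 11.8 (T54) and 14.8 (T55) CPM, embryos in 1.3 µM had 7.81, 9.14 and 7.03 CPM, and embryos in 2.4 µM had 5.57, 6.53 and 7.00 CPM. All treated libraries were below both controls, and the 2.4 µM libraries were all below the 1.3 µM libraries. The change was -0.74 ± 0.16 at 1.3 µM (adjusted p = 0.027) and -1.07 ± 0.16 at 2.4 µM (adjusted p = 0.00013). It was the only member called in each case, when 0.181% and 0.404% of all tested genes were DEGs. The step from 1.3 to 2.4 µM itself, -0.33 ± 0.15, was not significant (adjusted p = 1.00). In pools of whole embryos fewer cells of a type and less RNA per cell cannot be told apart.

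The control group of 2 libraries limits this age. At 2.4 µM the call was lost without T55 (-0.89, adjusted p = 0.0648) and kept without any other library of the 2 groups, and at 1.3 µM it was lost without T54, T55, T56 or T60 (-0.89 to -0.57, adjusted p between 0.0632 and 0.852) and in limma voom (adjusted p = 0.0985). T51, the omitted DMSO library, had 12.9 CPM, between the other controls, and with it the changes were -0.71 (adjusted p = 0.0039) and -1.05 (adjusted p = 5.2e-05).

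At 36 hpf, after the shortest exposure, cyp1a was at 9.21 (T16), 6.52 and 7.56 CPM with 2.4 µM sorafenib against 9.28 to 9.89 CPM in DMSO. The treated libraries were all lower, yet -0.32 ± 0.15 did not pass the test (adjusted p = 0.215), and 0 of 8 members did, when 2.23% of all genes were DEGs. An unadjusted p under 0.05 was found for 4 of 8 members, beside 4587 of all 24246 genes, and DESeq2 called 1 member, cyp1c1. With T16, T37 and T49 left out cyp1a passed at this age (-0.52, adjusted p = 0.023). At 1.3 µM cyp1a was at 12.2, 9.23 and 7.68 CPM, around the controls (0.00 ± 0.14), and 0 of 8 members passed in edgeR and in DESeq2 when 0.0454% of all genes did (0 of 8 at an unadjusted p under 0.05, beside 854 of all 24246 genes).

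At 96 hpf cyp1a was at 23.8, 24.5 and 22.2 CPM in late DMSO, at 17.9, 19.0 and 18.0 CPM with 1.3 µM and at 19.3, 17.8 and 16.9 CPM with 2.4 µM sorafenib. Neither treated group overlapped DMSO. The change at 2.4 µM, -0.38 ± 0.14, was significant (adjusted p = 0.042), and with ahr2 it made 2 of 8 members called when 19.9% of all genes were DEGs. This call was close to the threshold and was lost without any 1 of T69, T70, T76, T77 or T78 (-0.42 to -0.34, adjusted p between 0.0559 and 0.163), with RLE scaling, with no filter on low counts and with T51 kept (adjusted p = 0.0677, 0.0526 and 0.0680). The change at 1.3 µM was of like size (-0.36 ± 0.14, unadjusted p = 0.0122) but its adjusted p was 1.00, and 0 of 8 members passed when 0.0206% of all genes were DEGs (2 of 8 at an unadjusted p under 0.05, beside 940 of all 24246 genes, and 0 of 8 in DESeq2).

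**Figure D2:**
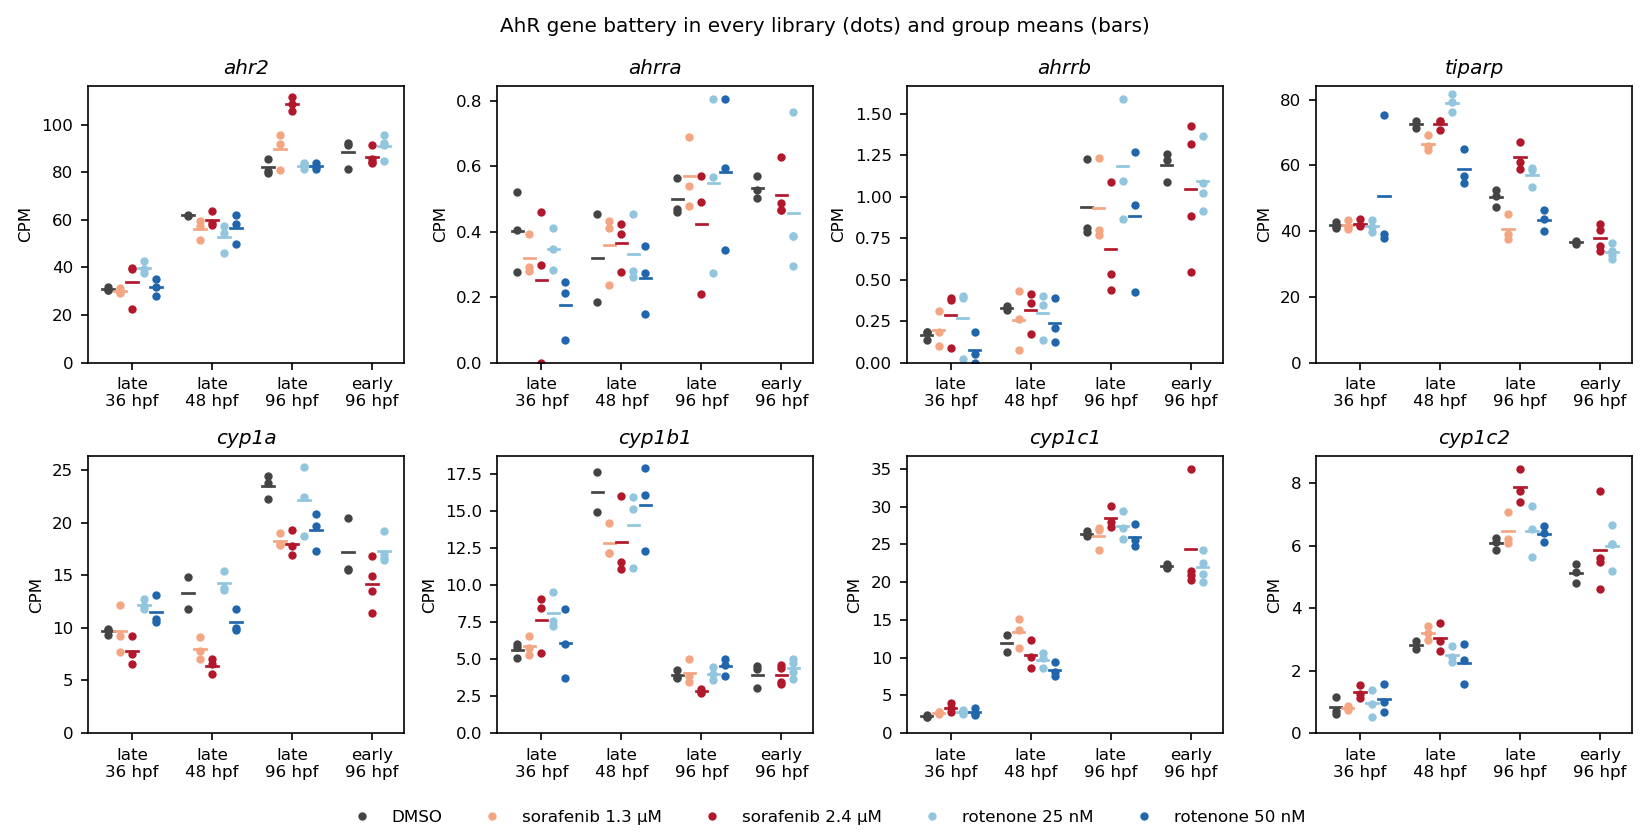
CPM of the 8 members in all 55 libraries (dots) with group means (bars), by scenario and age. In late embryos at 48 hpf the cyp1a dots of both sorafenib groups (5.57 to 9.14 CPM) are all below those of DMSO and rotenone (9.84 CPM and more).

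Markers of endothelium, the cells whose VEGF receptors sorafenib blocks, were lower in the same libraries. The list had 12 genes, of which 10 could be matched (kdrl, kdr, flt1, cdh5, tie1, tek, clec14a, egfl7, fli1 and erg). At 48 hpf their summed level was 205 to 206 CPM in DMSO, 122 to 147 CPM with 1.3 µM and 117 to 149.5 CPM with 2.4 µM sorafenib. All 10 were lower at both concentrations, with 4 and 6 of them significant and medians of -0.77 and -0.87. At 96 hpf the sum was 170 to 177 CPM in late DMSO and 127 to 147 CPM with 2.4 µM (10 of 10 lower, 3 significant, median -0.39). With 1.3 µM it was 130 to 154 CPM at that age (10 of 10 lower, 0 significant, median -0.29). At 36 hpf the sum was 178 to 193 CPM in DMSO, 129 to 140 CPM with 1.3 µM and 121 to 133 CPM with 2.4 µM. There 2 and 5 of the 10 markers were significant (medians -0.37 and -0.56), and the fitted changes of cyp1a were 0.00 and -0.32. In DMSO embryos from 36 to 96 hpf the marker median was -0.05 and the change of cyp1a was 1.28. With rotenone 0 of the 10 markers were significant in any comparison, and their medians lay between -0.13 and 0.12. At 50 nM the median was -0.002 at 48 hpf and 0.12 at 96 hpf. At these ages cyp1a was below all late DMSO libraries, without passing the test (9.84 to 11.76 CPM at 48 hpf, 17.3 to 20.8 CPM at 96 hpf). The part of the endothelial markers in the cyp1a results was not tested.

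**Figure D3:**
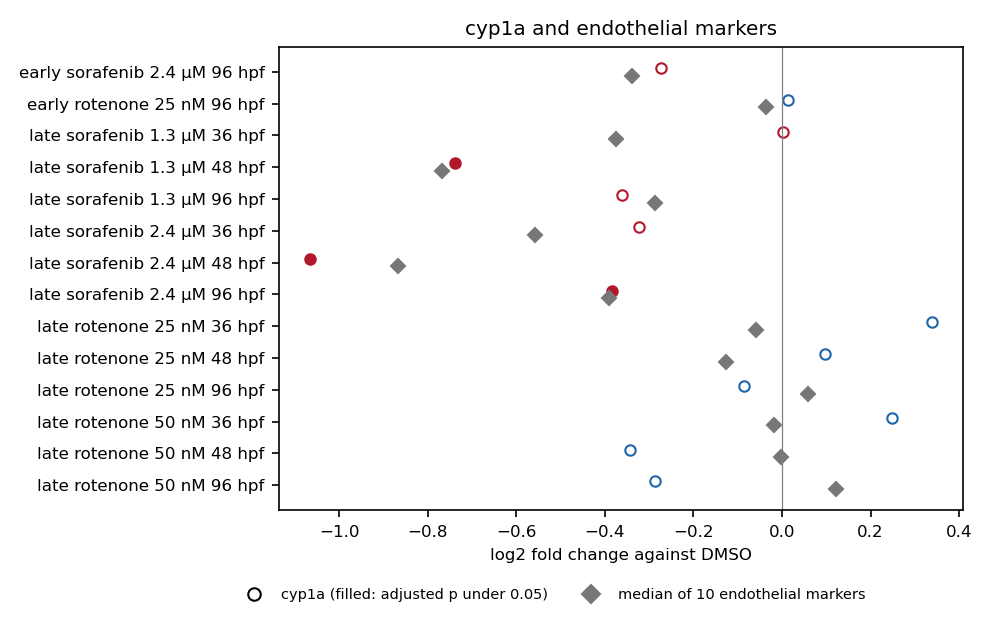
Log2 fold change against DMSO of cyp1a (circles, filled where the adjusted p is under 0.05; red sorafenib, blue rotenone) and the median of the 10 endothelial markers (diamonds) in the 14 comparisons. Both are lowest with sorafenib at 48 hpf, where cyp1a is at -0.74 and -1.07 and the markers are at -0.77 and -0.87.

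The likeness of other genes to cyp1a was measured as Pearson's r of log2 CPM over the 55 libraries, after subtracting the mean of each scenario and age. Of 24245 genes the 5 with a symbol that were most like cyp1a were AQP8, a water channel (r = 0.81), GPR182, a receptor of endothelial cells (r = 0.76), fli1rs, an ETS transcription factor (r = 0.74), pecam1a, an endothelial adhesion protein (r = 0.73), and acvrl1, a BMP receptor of endothelium (r = 0.72). The 10 endothelial markers had r between 0.36 and 0.68 and ranks between 13 and 786. The other 7 members had r between -0.27 (cyp1c1, rank 22800) and 0.15 (tiparp, rank 5631). Without T16, T37 and T49 pecam1a moved from rank 4 to 12 and acvrl1 from rank 6 to 16. The markers then ranked between 8 (erg) and 112 (egfl7), and the other members had r between -0.35 (cyp1c2) and 0.25 (cyp1b1). These points share libraries, exposures and depth, and r is given as a description.

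AQP8, chosen for its likeness to cyp1a in these libraries, is described without a test. At 48 hpf it was at 5.90 to 7.69 CPM in DMSO, at 0.97 to 2.70 CPM with 1.3 µM and at 0.89 to 4.07 CPM with 2.4 µM sorafenib, and at 6.86 to 8.29 CPM with 50 nM rotenone.

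Compared directly in the late scenario, 50 nM rotenone and 2.4 µM sorafenib differed in cyp1a at 36 and 48 hpf. At 48 hpf rotenone embryos had 9.84, 11.8 and 9.94 CPM, all above the 5.57 to 7.00 CPM of sorafenib embryos. The difference was -0.72 ± 0.15 (adjusted p = 0.0027). These rotenone libraries were also below both DMSO libraries, at most 11.76 against at least 11.83 CPM, without passing the test. At 36 hpf the rotenone libraries had 13.1 (T37), 10.5 and 10.9 CPM, above DMSO (9.28 to 9.89 CPM) and all sorafenib libraries. The levels of T37 and of T16 in the sorafenib group were raised by their low TMM factors (0.66 and 0.68). The difference from sorafenib was -0.57 ± 0.15 (adjusted p = 0.011). This call was lost without T37 (-0.47, adjusted p = 0.123) and in a fit of these 2 groups alone (-0.56, adjusted p = 1.00). In each of these 2 comparisons cyp1a was the 1 member called, when 1.97% of all genes were DEGs at 48 hpf and 9.56% at 36 hpf. At 96 hpf rotenone embryos had 17.3 to 20.8 CPM, below the 22.2 to 24.5 CPM of late DMSO. Between the substances cyp1a did not pass at that age (-0.10 ± 0.14, 95% interval -0.38 to 0.18), and 3 other members did, when 19.2% of all genes were DEGs.

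The 3 members called between the substances at 96 hpf were ahr2, tiparp and cyp1b1. The receptor ahr2 had 109, 106 and 112 CPM with 2.4 µM sorafenib, 79.9 to 85.5 CPM in DMSO and 81.5 to 83.9 CPM with 50 nM rotenone. It was higher in all 3 sorafenib libraries, by 0.41 ± 0.11 against DMSO (adjusted p = 0.0060, 1.33-fold) and by 0.40 ± 0.11 against rotenone (adjusted p = 0.0081). Both calls held without each library of their groups in turn (adjusted p at most 0.0312 and 0.0405). At 1.3 µM ahr2 was at 95.8, 91.8 and 81.0 CPM, overlapping DMSO.

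The level of tiparp at 96 hpf differed between the 2 sorafenib concentrations. It was at 52.6, 50.8 and 47.5 CPM in DMSO, at 37.7, 39.2 and 45.2 CPM with 1.3 µM and at 59.0, 61.1 and 67.2 CPM with 2.4 µM. The 3 groups did not overlap. Neither group passed against DMSO (-0.31 ± 0.13, adjusted p = 1.00, and 0.31 ± 0.13, adjusted p = 0.0745), although at 2.4 µM tiparp was up-regulated in voom (0.36, adjusted p = 0.013), without T16, T37 and T49 (0.39, adjusted p = 1.8e-05) and in a fit of the compared groups alone (0.39, adjusted p = 0.0064), whereas the dose step between them did (0.62 ± 0.13, adjusted p = 0.00037) and held without each of the 6 libraries (adjusted p at most 0.0063). It was the 1 member called for this step, when 16.3% of all genes were DEGs. Against 50 nM rotenone (40.1, 46.5 and 43.8 CPM) the 2.4 µM group was higher by 0.52 ± 0.13 (adjusted p = 0.0021).

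The level of cyp1b1 at 96 hpf was 2.96, 2.72 and 2.74 CPM with 2.4 µM sorafenib, below the 3.73 to 4.24 CPM of DMSO and the 3.86 to 5.01 CPM of 50 nM rotenone. The difference was significant against rotenone (-0.68 ± 0.21, adjusted p = 0.017; 0.0505 to 0.0806 without T69, T70, T87 or T89) and not against DMSO (-0.48 ± 0.21, adjusted p = 0.105). At 36 hpf with 2.4 µM it was at 5.44 (T16), 9.06 and 8.46 CPM against 5.05 to 6.01 CPM in DMSO (0.46 ± 0.21, adjusted p = 0.213), and without T16, T37 and T49 it was up-regulated (0.58, adjusted p = 0.029). The change at 96 hpf minus that at 36 hpf was -0.94 ± 0.29 (adjusted p = 0.029), the 1 member called for this difference of ages, when 12.5% of all genes were DEGs, and without T18, T29, T69, T70 or T77 it did not pass (-0.92 to -0.80, adjusted p between 0.0588 and 0.0719), nor in a fit of its own groups alone (adjusted p = 0.0954).

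The paralogs cyp1c1 and cyp1c2 were higher with 2.4 µM sorafenib at 36 hpf without passing the test. They stood at 4.00, 3.30 and 2.79 CPM (cyp1c1; DMSO 2.09 to 2.45 CPM) and at 1.53, 1.11 and 1.26 CPM (cyp1c2; DMSO 0.62 to 1.16 CPM). The cyp1c1 groups did not overlap (0.58 ± 0.17, adjusted p = 0.0619; 0.0418 in DESeq2 and 0.0148 without T20), and those of cyp1c2 did (0.61 ± 0.26, adjusted p = 0.194). At 96 hpf cyp1c2 was at 8.46, 7.76 and 7.40 CPM against 5.87 to 6.23 CPM, without overlap and again without passing (0.37 ± 0.20, adjusted p = 0.195). It was up-regulated there without T16, T37 and T49 (0.45, adjusted p = 0.038) and in a fit of the compared groups alone (0.44, adjusted p = 0.014).

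**Figure D4:**
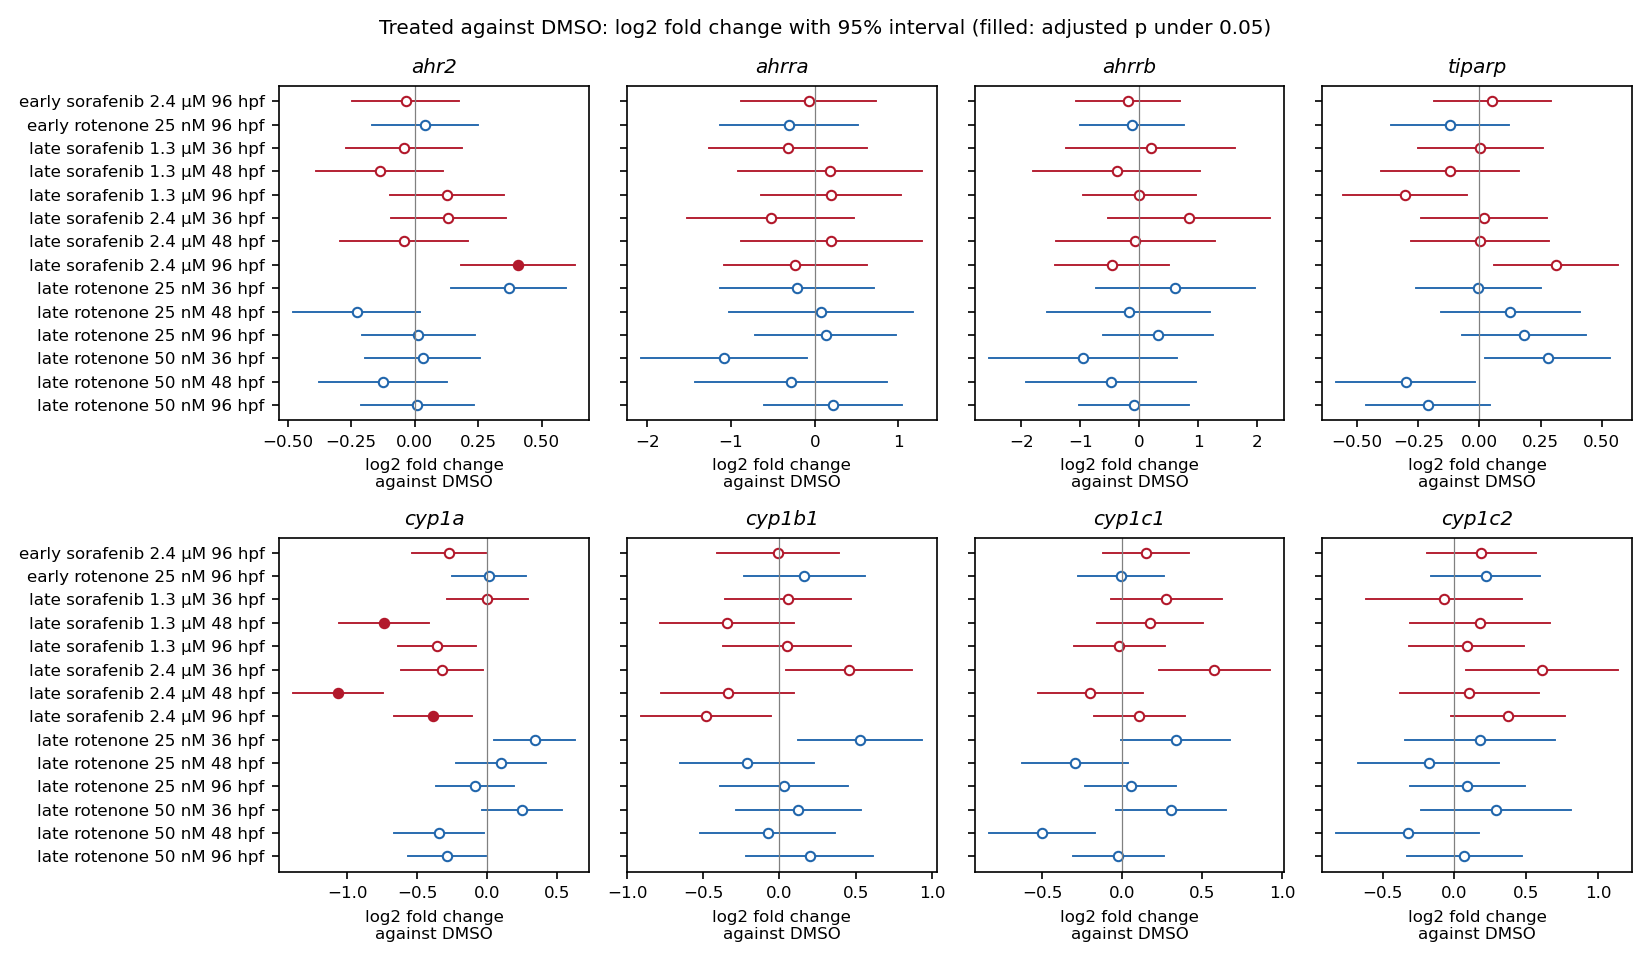
Log2 fold change with its 95% interval for each member in the 14 comparisons with DMSO (red sorafenib, blue rotenone; filled where the adjusted p is under 0.05). The 4 filled points are cyp1a with sorafenib (-0.74 and -1.07 at 48 hpf, -0.38 at 96 hpf) and ahr2 (0.41).

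Rotenone gave no significant change of any member against DMSO in the edgeR fit of all groups. In the late scenario 0 of 8 passed at 25 nM at 36, 48 and 96 hpf (0.0866%, 0% and 0% of all genes were DEGs) and 0 of 8 at 50 nM (0.396%, 0.0866% and 0.00412%). At an unadjusted p under 0.05 there were 3, 0 and 0 members at 25 nM and 2, 3 and 1 at 50 nM, and DESeq2 called 0 in all 6. Of all 24246 genes 2008, 1792 and 223 had such a p at 25 nM, and 3622, 1577 and 853 at 50 nM. The fitted change of cyp1a lay between -0.34 (50 nM, 48 hpf) and 0.34 (25 nM, 36 hpf). At 50 nM and 48 hpf the fitted change was upward in 0 of 8 members, with a median of -0.31 beside -0.005 over all genes. The median size of change over all genes, regardless of direction, was 0.14 there, and the members share the same DMSO libraries. There cyp1a was below both DMSO libraries, at 9.84 to 11.76 CPM against 11.83 and 14.83 CPM. At 25 nM and 36 hpf 6 of 8 members were upward, with a median of 0.34 beside 0.01 over all genes (median size 0.13 regardless of direction). At 25 nM and 36 hpf the cyp1a level was 12.0, 12.8 and 11.8 CPM, above all DMSO libraries (adjusted p = 0.449), and ahr2 was at 42.8, 37.7 and 39.3 CPM against 30.3 to 31.8 CPM (0.37 ± 0.11, adjusted p = 0.184). Fitted on these 2 groups alone, cyp1a, cyp1b1 and ahr2 passed there (0.33, 0.52 and 0.36, adjusted p = 0.018, 0.015 and 0.0011). At 50 nM and 48 hpf cyp1c1 was down-regulated with T51 kept (-0.57, adjusted p = 0.032) and tiparp without T16, T37 and T49 (-0.32, adjusted p = 0.029).

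At 50 nM and 36 hpf 1 library stood apart in tiparp. T37 had 75.2 CPM, where T38 and T40 had 37.9 and 39.2 CPM and DMSO had 41.0 to 42.8 CPM, so that the other 2 libraries were below DMSO and T37 above it. Part of this gap comes from the scaling, as the TMM factor was 0.66 in T37 and 0.96 in both T38 and T40. The call of tiparp appeared when T38 or T40 was left out (0.45 and 0.43, adjusted p = 0.023 and 0.033). The same library was lowest of its group in cyp1b1 (3.73 against 6.04 and 8.40 CPM), ahr2 (28.0 against 31.7 and 34.9 CPM) and ahrra, and ahrrb had 0 counts in it. T16 of the sorafenib group at this age was also apart, with ahr2 at 22.3 CPM beside 39.7 and 39.3 CPM, and without it ahr2 passed against DMSO (0.35, adjusted p = 0.013).

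The dose step of rotenone from 25 to 50 nM gave 0 of 8 members at 36, 48 and 96 hpf, when 5.61%, 2.67% and 0.0701% of all genes were DEGs (4, 2 and 1 members at an unadjusted p under 0.05, beside 5540, 4510 and 1379 of all 24246 genes, and 1, 2 and 0 members in DESeq2). The lowest p was that of tiparp at 48 hpf, which was at 76.3, 81.7 and 79.4 CPM with 25 nM and at 56.7, 65.1 and 54.5 CPM with 50 nM (-0.43 ± 0.13, adjusted p = 0.0524). The dose step of sorafenib gave 0 of 8 at 36 hpf (0.705% of all genes) and 0 of 8 at 48 hpf (0.00412%), with 2 members at an unadjusted p under 0.05 at each age and 0 in DESeq2. Of all 24246 genes 3875 and 782 had such a p at these ages.

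After the early start no member passed with either substance. With 2.4 µM sorafenib cyp1a was at 11.5, 14.9, 13.5 and 16.8 CPM against 20.4, 15.6 and 15.5 CPM in early DMSO, overlapping (-0.27 ± 0.13, adjusted p = 1.00), while the endothelial sum was 142 to 154 CPM against 173 to 182 CPM (10 of 10 lower, 0 significant). In all, 0 of 8 members passed when 0.0289% of all genes did (1 of 8 at an unadjusted p under 0.05, beside 785 of all 24246 genes, and 0 members in DESeq2). With 25 nM rotenone cyp1a was at 16.7, 16.4, 17.0 and 19.2 CPM (0.01 ± 0.13), and 0 of 8 passed when 0% of all genes did (0 of 8 at an unadjusted p under 0.05, beside 306 of all 24246 genes, and 0 members in DESeq2). In the direct comparison of these 2 groups 0 of 8 passed, against 0.0124% of all genes (1 at an unadjusted p under 0.05, beside 910 of all 24246 genes, and 0 members in DESeq2).

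The early and the late change at 96 hpf were compared as a difference of differences. The start of exposure and the experiment cannot be told apart in it, nor between early and late DMSO. For 2.4 µM sorafenib 0 of 8 members passed when 8.03% of all genes did (1 at an unadjusted p under 0.05, beside 4850 of all 24246 genes, and 1 member in DESeq2). That member was ahr2, at 84.4, 83.9, 91.3 and 85.5 CPM with early sorafenib against 92.4, 91.6 and 81.3 CPM in early DMSO, where the late change had been upward (-0.44 ± 0.15, adjusted p = 0.0622). Besides DESeq2, this ahr2 difference passed with RLE scaling, in voom and with T51 kept. It also passed without T16, T37 and T49 and in a fit of the compared groups alone, but not with the other filters. For 25 nM rotenone 0 of 8 passed when 0% of all genes did (0 at an unadjusted p under 0.05, beside 316 of all 24246 genes, and 0 members in DESeq2). Early and late DMSO at 96 hpf did not differ in any member by the test, when 0.458% of all genes were DEGs. At an unadjusted p under 0.05 there were 2 of 8 members, beside 1993 of all 24246 genes, and DESeq2 called 0. The 2 were cyp1a (15.5 to 20.4 CPM early, 22.2 to 24.5 CPM late, -0.45 ± 0.14, adjusted p = 0.148) and tiparp (36.1 to 37.0 CPM early, 47.5 to 52.6 CPM late, -0.46 ± 0.13, adjusted p = 0.0934).

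Whether the late changes differed between ages was tested for each substance and concentration. For cyp1a and 2.4 µM sorafenib the change at 96 hpf minus that at 48 hpf was 0.68 ± 0.21 (adjusted p = 0.0527), with 0 of 8 members called when 4.31% of all genes were DEGs (2 at an unadjusted p under 0.05, beside 3865 of all 24246 genes, and 2 members in DESeq2, cyp1a and ahr2). This cyp1a difference also passed with a mean count of at least 10, in voom and with T51 kept. It passed too without T16, T37 and T49 and in a fit of its own groups alone (adjusted p = 0.0067 and 0.013), but not with RLE scaling or no filter. The change at 48 hpf minus that at 36 hpf, a comparison added after the values were seen, was -0.74 ± 0.22 (adjusted p = 0.199), with 0 of 8 called against 0.0165% of all genes (3 at an unadjusted p under 0.05, beside 2239 of all 24246 genes, and 0 members in DESeq2). For 1.3 µM sorafenib 0 of 8 members passed in the 96 minus 36, 96 minus 48 and 48 minus 36 hpf differences (0%, 0% and 0.00412% of all genes), with 0, 0 and 1 at an unadjusted p under 0.05 (813, 804 and 781 of all 24246 genes) and 0 in DESeq2 in each. For 25 nM rotenone 0 of 8 passed in the same 3 differences (0%, 0% and 0%), with 2, 0 and 3 at an unadjusted p under 0.05 (1243, 969 and 3508 of all genes) and 0, 0 and 1 in DESeq2. For 50 nM rotenone 0 of 8 passed as well (0.0371%, 0.0289% and 0%), with 3, 1 and 3 at an unadjusted p under 0.05 (2103, 1002 and 1985 of all genes) and 0 in DESeq2 in each.

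Of 20 further genes of the pathway 12 could be matched by symbol and all 12 were tested: the receptors ahr1a and ahr1b, the partners arnt and arnt2, the chaperone genes aip, hsp90ab1 and hsp90aa1.1, cyp1d1, and nqo1, foxq1b, wfikkn1 and ugt1a1. None passed in 13 of the 14 comparisons with DMSO, in which 0% to 2.23% of all genes were DEGs. With 2.4 µM sorafenib at 96 hpf, when 19.9% of all genes were DEGs (1723 up- and 3114 down-regulated), 1 of 12 was up-regulated and 4 were down-regulated, with a median of -0.08 beside -0.07 over all genes.

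The receptor gene ahr1b, the neighbour of ahr2 in the RefSeq gene order, was at 15.5, 15.5 and 17.0 CPM in DMSO and at 9.88, 7.08 and 8.13 CPM with 2.4 µM sorafenib (-0.94 ± 0.26, adjusted p = 0.0066). It was lower in all 3 libraries in which ahr2 was higher. The gene ugt1a1, a glucuronosyltransferase of the conjugation phase, was at 138, 155 and 151 CPM in DMSO and at 89.1, 90.8 and 93.5 CPM (-0.70 ± 0.15, adjusted p = 0.00045). The chaperone gene aip, whose protein holds the receptor in the cytosol, changed by -0.28 ± 0.08 (adjusted p = 0.0057), and the transcription factor gene foxq1b by -0.61 ± 0.18 (adjusted p = 0.012). The gene wfikkn1, which encodes a secreted protease inhibitor and is known to rise with dioxin in zebrafish, was up-regulated (2.08 ± 0.55, adjusted p = 0.0043) from 0.04 to 0.10 CPM to 0.31 to 0.37 CPM, far below its 19.2 to 20.2 CPM in DMSO at 36 hpf. Most markers of hepatocytes were higher in these embryos (5 of 10 up-regulated, 2 of 10 lower, summed level 2787 to 3753 CPM against 2315 to 2485 CPM in DMSO). Most markers of intestine were lower (4 of 5 lower, 3 of 5 down-regulated, 679 to 733 CPM against 1023 to 1114 CPM). In DMSO at 36 hpf these sums were already 2428 to 2583 and 711 to 729 CPM, while fabp10a ranged from 0.11 to 128 CPM over all libraries. How far the sums stand for these cell types was not tested, nor was the part of these markers in the changes of ahr2, cyp1a and the pathway genes.

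The members differed in how well they could be read. The spread between replicates, as the coefficient of variation, had a median over the 18 groups of 4.75% for tiparp, 5.04% for ahr2, 9.56% for cyp1c1, 10.4% for cyp1c2, 10.9% for cyp1a and 14.4% for cyp1b1. For ahrra and ahrrb it was 31.2% and 44.1%, with at most 51 and 105 counts in a library. Their 95% intervals reached from -2.08 to 1.29 for ahrra and from -2.56 to 2.22 for ahrrb over the 14 comparisons, the widest intervals of the 8 members.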

How the data were processed

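RNA of whole embryos was made into stranded libraries (NEBNext Ultra II) and sequenced. Per the labels and the paper's methods, the authors aligned reads to GRCz11 with HISAT2 2.1.0, removed reads of low mapping quality and counted them on genes with featureCounts 2.0.3. The deposited table holds these counts, not normalized, and a sample sheet with read counts. The annotation release is not given in the sources used here.

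Groups came from the library titles, which name substance and age, and from the exposure start and concentration given for each library. Counts were filtered with filterByExpr by group, scaled with TMM and fitted in edgeR 4.0.16 (R 4.3.3) as 1 quasi-likelihood model of 18 groups and 55 libraries, with Benjamini-Hochberg adjustment over 24246 genes and a threshold of 0.05. CPM and log2 CPM (prior count 2) were computed from the scaled counts. The scripts were tested on simulated data. Alternatives were DESeq2 1.42.0, RLE scaling, other filters, limma 3.58.1 (voom with cyclic loess), fits of the compared groups alone, T51 kept, T16, T37 and T49 left out, and each library left out. Standard errors include counting error. The members, gene lists and comparisons were chosen with earlier results of these data known. All 8 members are described, with up to 6 pathway genes by lowest p and the 5 genes most like cyp1a. Symbols came from a reference table, in which 8 of 20 pathway genes and 2 of 12 endothelial markers could not be matched. Labels do not say whether pools came from separate spawnings, so p-values measure the spread between pools.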

Additional observations from a re-analysis of the deposited data

Results flagged for a closer look

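In 16 tests of a member in a group of 4 early libraries, 2 libraries stood apart from the other 3 of their group by Dixon's criterion for 4 values (the gap to the nearest library as a share of the whole range), which chance passes in about 1 of 20 groups. In early sorafenib 2.4 µM at 96 hpf T1 had cyp1c1 at 35.0 CPM where the others had 20.3, 21.4 and 21.0 CPM (ratio 0.92). The neighbouring cyp1c2 was also highest in T1, at 7.74 CPM beside 4.60 to 5.59 CPM, and cyp1a was lowest in it, at 11.5 CPM. In the same group T3 had ahrra at 0.63 CPM beside 0.47 to 0.49 CPM (ratio 0.86), which rests on about 20 counts a library.

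The change of cyp1b1 with 2.4 µM sorafenib differed between ages by the test of the difference itself, -0.94 at 96 hpf minus 36 hpf, when 12.5% of all genes were DEGs. This call was lost without T18, T29, T69, T70 or T77 and in a fit of its own groups alone. The causes of these differences were not tested.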

How the results depend on the processing

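No member change that was significant in the edgeR fit of all groups reversed its direction under the 8 alternatives or with 1 library left out. Changes that were not significant there were not followed in this way. Counts of members called moved by over 1.5 times, or to or from 0, as follows. In DESeq2 they moved from 0 to 1 with 2.4 µM sorafenib at 36 hpf, for the rotenone dose step at 36 hpf, for the early minus late change of sorafenib and for the added 48 minus 36 hpf change of 25 nM rotenone, from 0 to 2 for the rotenone dose step at 48 hpf and the 96 minus 48 hpf change of 2.4 µM sorafenib, and from 1 to 3 for the sorafenib dose step at 96 hpf. With RLE scaling they moved from 2 to 1 with 2.4 µM sorafenib at 96 hpf, from 1 to 2 for its dose step and from 0 to 1 for the early minus late change. With no filter the 96 hpf count was 1. With a mean count of at least 10 the rotenone dose step at 48 hpf and the 96 minus 48 hpf change had 1. In voom the count with 1.3 µM sorafenib at 48 hpf was 0, and it was 1 for both rotenone dose steps at 36 and 48 hpf, the early minus late change, the 96 minus 48 hpf change and early against late DMSO, while cyp1a from 36 to 48 hpf and ahrrb from 48 to 96 hpf in DMSO were not called (0.38 and 0.86, adjusted p = 0.0755 and 0.263). With T51 kept the counts were 1 with 2.4 µM sorafenib at 96 hpf, 50 nM rotenone at 48 hpf, the early minus late change and the 48 minus 36 hpf change of 25 nM rotenone, and 2 for the sorafenib dose step at 96 hpf and the 96 minus 48 hpf change. Without T16, T37 and T49 they were 3 with 2.4 µM sorafenib at 36 hpf, 4 at 96 hpf, 1 with 25 nM rotenone at 36 hpf and 50 nM at 48 hpf, 3 for the sorafenib dose steps at 36 and 96 hpf, 2 and 1 for the rotenone dose steps at 48 and 96 hpf, 2 for the early minus late change, 2 and 3 for the 96 minus 36 and 96 minus 48 hpf changes of 2.4 µM sorafenib, 1 for the 48 minus 36 hpf change of 25 nM rotenone, 2 for early against late DMSO and 2 for sorafenib against rotenone at 48 hpf. In fits of the compared groups alone they were 5 with 2.4 µM sorafenib at 96 hpf, 3 with 25 nM rotenone at 36 hpf, 2 for the sorafenib and 1 for the rotenone dose step at 96 hpf, 1 for the early minus late change, 0 and 3 for the 96 minus 36 and 96 minus 48 hpf changes of 2.4 µM sorafenib, 1 for the 96 minus 36 hpf change of 25 nM rotenone, 1 for early against late DMSO and 0 for sorafenib against rotenone at 36 hpf. With 1 library left out the counts ranged from 0 to 1 with 1.3 µM sorafenib at 48 hpf, 2.4 µM at 36 and 48 hpf, 50 nM rotenone at 36 hpf, the sorafenib dose step at 36 hpf, the early minus late change and the 96 minus 36 and 96 minus 48 hpf changes of 2.4 µM sorafenib, from 1 to 2 with 2.4 µM sorafenib at 96 hpf, and from 0 to 4 for the rotenone dose step and sorafenib against rotenone at 36 hpf. The share of all genes called under each alternative is not given, so these member counts cannot be set beside a background. The causes were not tested.

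The median change of all genes moved by over 0.1 in voom (-0.19) and with T51 kept (-0.13) for DMSO from 36 to 96 hpf, and without T16, T37 and T49 for 6 comparisons (-0.16 to 0.19). No paired analysis was possible because the tube numbers are not shared between groups. Leaving out a late DMSO library at 48 hpf leaves 1, which is assumed to vary like the other groups. The promoter motif comparison was not run, nor were single libraries left out for the added 48 minus 36 hpf changes. Depth limits ahrra and ahrrb most.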
